A study of Homo sapiens with 13 samples.

Results

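Adding adapalene to docetaxel was examined by comparing the 3 libraries labelled Combo with the 4 labelled Docetaxel, 7 of the 13 libraries of the series, over all genes with enough counts to be tested. All libraries were made from PC3shTIMP1, the human prostate cancer epithelial line PC3 carrying a short hairpin RNA against TIMP1, so the hairpin is shared by every group. The Docetaxel cells received 1 nM docetaxel and the Combo cells received docetaxel together with adapalene, each for 48 h. The labels give 5 µM for adapalene alone and do not restate either dose for the combination. Vehicle (3 libraries) and 5 µM adapalene alone (3 libraries), at the same time, serve here as reference levels. The series is 1 line, cells with another hairpin or none were not analysed here, and the submitters call the replicates technical, so p-values measure only the spread between these libraries.

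Docetaxel is a taxane that binds tubulin, stabilises microtubules and blocks chromosome segregation. Adapalene is a synthetic retinoid used on the skin, and it activates the retinoic acid receptors, mainly RARB and RARG, which bind DNA as partners of the retinoid X receptors. Retinoids are known for slowing the proliferation of epithelial cells and for opposing transcription driven by AP-1 factors.

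Library totals in both groups ran from 11948720 to 16110898 counts. Levels are CPM (counts scaled to library size, with TMM factors), listed in the order of the replicate numbers. A gene is called higher or lower when its p from the edgeR quasi-likelihood test, adjusted by Benjamini-Hochberg over all 15734 tested genes, is under 0.05. Of the markers listed for the line, the epithelial gene KRT8 stood at 846 CPM or more in each library of both groups. VIM, listed with it but not an epithelial gene, stood at 1302 CPM or more. The line is known to make no prostate-specific antigen, and its gene KLK3 had at most 1 count in any library of the series. Markers of other cell types were partly absent and partly counted: MS4A1, NKG7, DCN, THY1 and EMCN had at most 3 counts in any library. Among the other markers of those types, the fibroblast gene COL1A1 stood at 19.8 to 32.4 CPM in Docetaxel and 33.9 to 46.8 CPM in Combo, and the endothelial gene PECAM1 at 8.45 to 12.4 CPM and 9.33 to 19.4 CPM. The endothelial gene KDR stood at 1.49 to 2.13 CPM and 3.05 to 4.40 CPM, and the leukocyte genes PTPRC and ITGAM stayed at or under 2.76 and 5.99 CPM. The part of other cells in the results was not tested. Of the tested fibroblast markers 2 of 5 were called higher in Combo (COL1A1 and ACTA2), of those of endothelium 1 of 3 (KDR) and of those of leukocytes 0 of 2 by edgeR. Both leukocyte markers had an unadjusted p under 0.05, in opposite directions, and DESeq2 called 1 lower. Because RNA was taken from the whole culture, fewer cells in a state and less RNA per cell cannot be told apart in any result here. On the first principal component, with 36.1% of the variance, Combo replicate 2 lay at -24.0 against 2.14 and 11.7 for the other 2 Combo libraries and 28.8 to 44.0 for Docetaxel. On the second, with 24% of the variance, Combo replicate 3 lay at -36.2 against -15.4 and -18.5 for Combo replicates 1 and 2. Mitochondrially encoded genes took 1.30, 1.01 and 2.56% of counts in Combo and 1.43, 1.72, 0.722 and 2.62% in Docetaxel (exact permutation test, two-sided, p = 1.0, smallest possible p 0.0286).

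TIMP1 (chromosome X, 47582313 to 47586789, GRCh38), a secreted inhibitor of metalloproteinases and the target of the hairpin, was detected in every library and rose with adapalene. It stood at 56.2, 62.0, 71.0 and 64.7 CPM in Docetaxel and at 98.1, 109 and 111 CPM in Combo, with no overlap. The log2 fold change was 0.74 (SE 0.116, edgeR adjusted p = 0.00057). Vehicle had a mean of 60.6 CPM and Adapalene one of 91.3 CPM. No library without the hairpin is used here, so the depth of the knockdown cannot be read from these values.

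Combo differed from Docetaxel in 3783 of the 15734 genes by this test. Higher in Combo were 2014 genes (12.8%) and lower were 1769 (11.2%). Most of the changes were small. The median log2 fold change was 0.49 among genes called higher and -0.41 among genes called lower, and 0.01 over all tested genes. A change of 2-fold or more was reached by 297 genes called higher and 264 called lower. A change of 4-fold or more was reached by 22 and 48. Every Combo library lay above every Docetaxel library in 16.9% of tested genes, and below in 15.2%. Without Combo replicate 2 the test called 1268 genes higher and 1024 lower, and without Docetaxel replicate 1 it called 1330 higher.

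**Figure D1:**
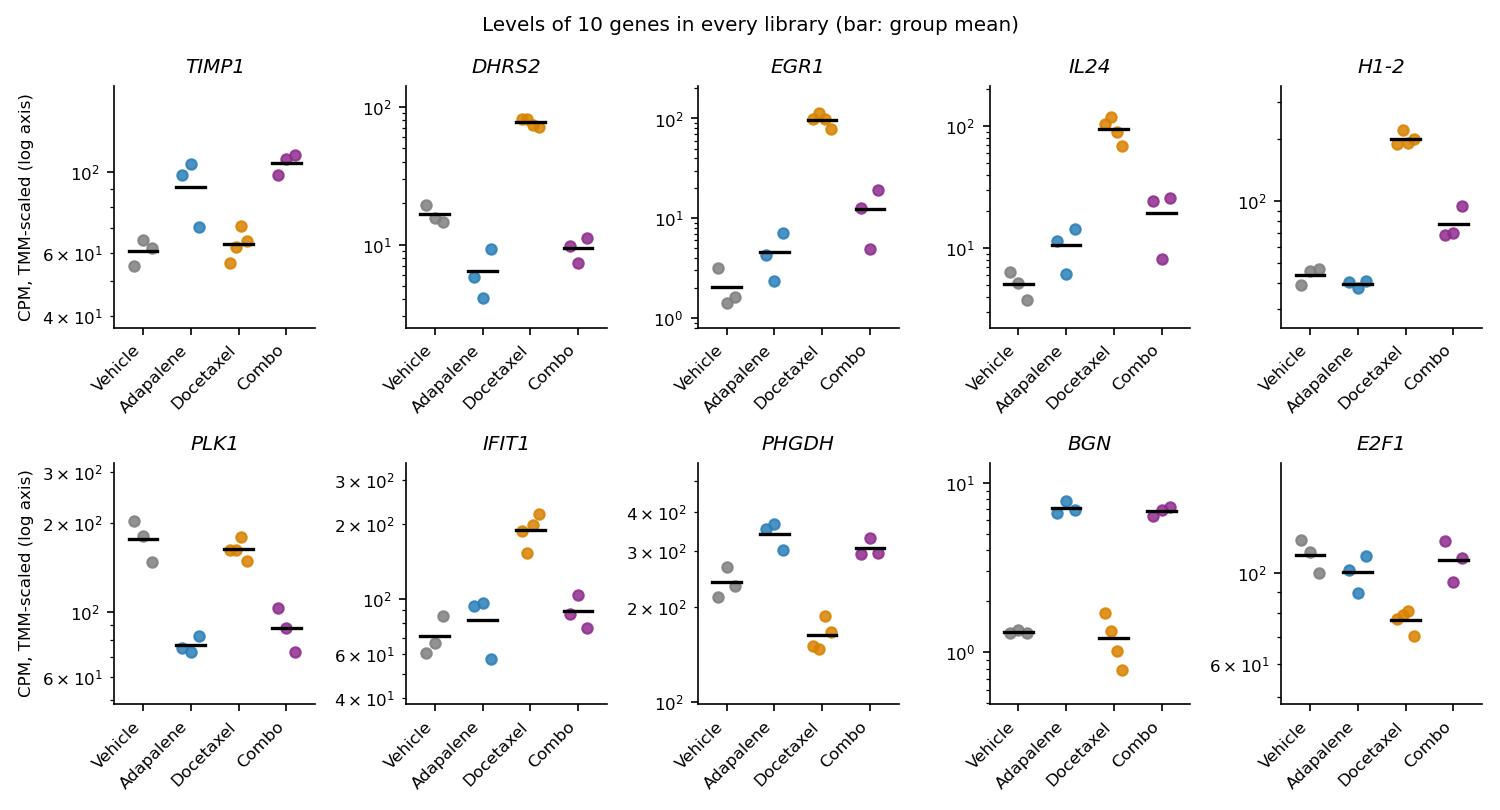
Level of 10 genes in each of the 13 libraries, in CPM on a log axis that differs between panels, with 1 point per library and a bar at the group mean. DHRS2, EGR1, IL24, H1-2, PLK1 and IFIT1 lie lower in all 3 Combo libraries than in all 4 Docetaxel libraries, and TIMP1, PHGDH, BGN and E2F1 lie higher in all 3.

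The genes that fell furthest include a dehydrogenase, an immediate-early transcription factor and a cytokine, each abundant with docetaxel alone. DHRS2 (chromosome 14, 23630115 to 23645639), a short-chain dehydrogenase/reductase, stood at 81.3, 81.1, 73.5 and 71.8 CPM in Docetaxel and at 9.78, 7.40 and 11.1 CPM in Combo. That is an 8.15-fold fall (log2 fold change -3.03, SE 0.186, edgeR adjusted p = 2.91e-07), to below the Vehicle mean of 16.6 CPM and near the Adapalene mean of 6.42 CPM. EGR1 (chromosome 5, 138465490 to 138469315), a zinc-finger factor induced within minutes by growth factors and stress, went from 99.0, 113, 99.1 and 78.9 CPM to 12.8, 4.93 and 19.2 CPM (log2 fold change -2.99, SE 0.324, edgeR adjusted p = 3.5e-05). IL24 (chromosome 1, 206897443 to 206904139), a cytokine of the IL10 family, went from 104, 119, 89.9 and 68.1 CPM to 24.4, 8.20 and 26.0 CPM (log2 fold change -2.28, edgeR adjusted p = 0.000232). EGR1 and IL24 stayed above their Vehicle means of 2.07 and 5.11 CPM. Within Combo both were lowest in replicate 2, the Combo library lowest on the first principal component. ADAMTS6, a secreted metalloprotease, fell by 2.05 on the log2 scale, from a mean of 71.5 to 17.2 CPM, again with Combo replicate 2 lowest at 8.63 CPM.

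The rest of the 12 largest falls were genes of low level. RPL3L, ENAM, CCDC13-AS2, CCR4, DNAH3, LINC01447, LINC02757 and NPC1L1 had between 1.28 and 4.79 CPM in each Docetaxel library and at most 1.12 CPM in any Combo library. RPL3L, a muscle form of a ribosomal protein, showed the largest of these (log2 fold change -3.66, SE 0.518). It is a close copy of RPL3, and CCDC13-AS2 is antisense to another gene. These values are uncertain, since no source used here says how reads shared by copies or by overlapping genes were counted.

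The genes that rose furthest started from a low level. BGN (chromosome X, 153494939 to 153509554) encodes biglycan, a small proteoglycan of the extracellular matrix. It stood at 1.71, 1.34, 1.02 and 0.791 CPM in Docetaxel and at 6.35, 6.89 and 7.24 CPM in Combo, a 5.61-fold rise (log2 fold change 2.49, SE 0.206, edgeR adjusted p = 4.27e-06). Vehicle (mean 1.32 CPM) lay with Docetaxel and Adapalene (mean 7.12 CPM) with Combo. The next were APCDD1L, SHC2, KCNK9, ATP2A3, ALPP, MYO15B, SCARA5, ARMH1, AZGP1, QPRT and KCNK15, with log2 fold changes of 2.39 down to 1.74. KCNK9 and KCNK15 encode leak potassium channels, ATP2A3 a calcium pump of the endoplasmic reticulum, ALPP the placental alkaline phosphatase and QPRT an enzyme of NAD synthesis. MYO15B reached 12.1 CPM in 1 Combo library, and the other 10 stayed under 6 CPM in every library of both groups. ALPP has near-identical paralogs and is uncertain for the reason given above. The call of SCARA5 was lost without Docetaxel replicate 2, Combo replicate 2 or Combo replicate 3 (edgeR adjusted p of 0.0504, 0.0505 and 0.0518).

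Genes of mitosis fell together. The list holds kinesins, kinetochore proteins, mitotic kinases and cyclins that act from the end of G2 to the end of mitosis. Of 43 tested members, 32 were called lower (74.4%, against 11.2% of all tested genes) and 0 higher (1 at an unadjusted p under 0.05, 0 by DESeq2), and 36 lay lower in all Combo than in all Docetaxel libraries (against 15.2%). The median log2 fold change was -0.41. Because their promoters bear on this group, the 250 bases before the annotated start of 2 members are shown, from RefSeq on GRCh38.p14 (PLK1, chr16:23678639-23678888, plus strand; CCNB2, chr15:59104896-59105145, plus strand). Capitals mark the CHR element (TTTGAA), the site of the complex that represses and then activates G2 and mitotic genes, and the CCAAT box (CCAAT), which binds the factor NF-Y, each on either strand.
PLK1: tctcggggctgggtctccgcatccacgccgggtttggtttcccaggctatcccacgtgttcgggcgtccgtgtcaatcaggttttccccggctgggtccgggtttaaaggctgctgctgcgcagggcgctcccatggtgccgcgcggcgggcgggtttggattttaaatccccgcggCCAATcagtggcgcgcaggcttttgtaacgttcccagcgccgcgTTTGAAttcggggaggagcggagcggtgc
CCNB2: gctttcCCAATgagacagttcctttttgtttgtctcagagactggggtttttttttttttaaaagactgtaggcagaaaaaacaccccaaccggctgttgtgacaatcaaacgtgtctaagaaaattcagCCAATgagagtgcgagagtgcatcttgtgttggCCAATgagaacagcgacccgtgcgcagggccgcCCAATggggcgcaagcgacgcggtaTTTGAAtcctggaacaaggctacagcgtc
In both, the CHR begins 29 bases before the start, downstream of a CCAAT box.

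PLK1 (chromosome 16, 23677656 to 23690367), a kinase that drives mitotic entry and spindle assembly, stood at 162, 162, 180 and 149 CPM in Docetaxel and at 103, 87.9 and 72.5 CPM in Combo (log2 fold change -0.89, SE 0.120, edgeR adjusted p = 0.000194). CENPE, a kinetochore motor, stood at 112, 109, 99.2 and 110 CPM against 63.2, 52.1 and 57.5 CPM (log2 fold change -0.90). CCNB1, the cyclin of mitotic entry, fell by 0.74 and the kinesins KIF14 and KIF18A by 0.76 and 0.68 on the log2 scale. In all 5 the groups did not overlap. MKI67, a marker of proliferating cells, had 487, 516, 464 and 500 CPM in Docetaxel and 368, 295 and 282 CPM in Combo (log2 fold change -0.64, edgeR adjusted p = 0.00129). CCNB2 fell by 0.41 (edgeR adjusted p = 0.0046). Not all members moved: CDK1, the partner kinase of the cyclins, had means of 184 and 196 CPM (edgeR adjusted p = 0.418). Without docetaxel, PLK1 had means of 178 CPM in Vehicle and 76.7 CPM in Adapalene. In Adapalene against Vehicle, 34 of the 43 members were called lower (against 9.16% of all tested genes), and the list's median was -0.62. The edgeR test of interaction, which asks whether the effect of adapalene differs between cells with and without docetaxel, called 0 of the 43 members in either direction, as did DESeq2. At an unadjusted p under 0.05 the interaction lay above 0 in 15 and below 0 in 0.

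The CHR was frequent in the promoters of this list and among the genes called lower. Promoters were read as 300 bases, 250 before and 50 after the first start listed for a gene, and 11205 tested genes matched one by symbol. A CHR was present in 9.83% of all these promoters, in 15.7% of the 1314 of genes called lower and in 5.95% of the 1513 of genes called higher. It was present in 25 of 37 promoters of the mitosis list (67.6%), and 21 of these also held a CCAAT box (56.8%, against 4.22% of all). Outside the mitosis list, 14.5% of promoters of genes called lower held a CHR. Exact direct repeats of AGGTCA spaced by 5 or by 2 bases, a form that retinoic acid receptors bind, matched in 0 of the 11205 promoters. Only exact copies were searched, so this count does not show that sites for these receptors are absent. These letters are a description of the window and show no binding.

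Of 45 tested members of the DNA replication list, 14 were called higher (31.1%, against 12.8% of all tested genes) and 0 lower by edgeR, by DESeq2 or at an unadjusted p under 0.05, with a median log2 fold change of 0.14. E2F1 (chromosome 20, 33675683 to 33686404), a transcription factor that activates genes of S phase, stood at 77.3, 79.2, 80.8 and 70.4 CPM in Docetaxel and at 120, 95.2 and 108 CPM in Combo (log2 fold change 0.49, SE 0.0926, edgeR adjusted p = 0.00201). CCNE2, a cyclin of the G1 to S transition, rose by 0.73, and CDT1 and CDC6, which load the replicative helicase, by 0.57 and 0.51 on the log2 scale. MCM2, 1 subunit of that helicase, showed values near no change, at means of 165 and 164 CPM (edgeR adjusted p = 0.993). The Vehicle mean of E2F1, 111 CPM, was close to that of Combo (108 CPM). A CHR was found in 1 of 37 promoters of this list (2.7%). Of the 45 members, 31 were not called and 11 had a negative log2 fold change. Without Combo replicate 1 the number called higher was 7, and without Combo replicate 2 it was 9.

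Replication histones showed the largest shift of any list. These genes lie in clusters, are transcribed in S phase, and give messages that mostly end in a stem-loop and not in a poly(A) tail. The libraries were made from polyadenylated RNA, so the values cover only the polyadenylated part of these messages. Of 56 genes in the list, 32 had enough counts to be tested. All 32 had a negative log2 fold change, and 23 were called lower (71.9%, against 11.2% of all tested genes). By edgeR, by DESeq2 or at an unadjusted p under 0.05, 0 were higher. In 22 every Combo library lay below every Docetaxel library (against 15.2% of all tested genes). The median log2 fold change was -1.18. Their summed level was 819, 929, 708 and 791 CPM in Docetaxel and 330.3, 297 and 441 CPM in Combo.

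Promoters of the linker histone H1-2 (chr6:26056471-26056720, minus strand) and of H2BC12 (chr6:27146859-27147108, minus strand) are shown because the CCAAT box is common in this list, with capitals for CCAAT on either strand.
H1-2: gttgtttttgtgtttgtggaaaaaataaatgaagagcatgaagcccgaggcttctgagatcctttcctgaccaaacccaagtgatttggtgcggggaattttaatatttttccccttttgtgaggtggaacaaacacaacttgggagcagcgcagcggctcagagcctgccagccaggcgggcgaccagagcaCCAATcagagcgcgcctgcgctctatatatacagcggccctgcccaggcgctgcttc
H2BC12: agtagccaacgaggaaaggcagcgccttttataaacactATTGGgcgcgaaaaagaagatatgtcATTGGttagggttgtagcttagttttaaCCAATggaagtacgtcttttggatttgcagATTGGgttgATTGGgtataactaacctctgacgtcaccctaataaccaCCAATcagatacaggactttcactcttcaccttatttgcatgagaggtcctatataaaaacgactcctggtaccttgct
The H1-2 window holds 1 CCAAT box and the H2BC12 window 6. A CCAAT box was present in 28 of 31 histone promoters (90.3%), against 36.8% of all promoters.

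H1-2 (chromosome 6, 26055787 to 26056428) stood at 189, 220, 190 and 200 CPM in Docetaxel and at 68.7, 70.1 and 94.6 CPM in Combo, a 2.57-fold fall (log2 fold change -1.36, SE 0.105, edgeR adjusted p = 2.33e-06). H2BC12 stood at 130, 133, 115 and 105 CPM against 51.3, 48.0 and 57.7 CPM (log2 fold change -1.21, edgeR adjusted p = 2.33e-06). H2BC4 and H2AC6, other core histones, fell by 1.32 and 1.08 on the log2 scale. Combo lay between Vehicle and Docetaxel for all 4, with H1-2 at a Vehicle mean of 44.1 CPM and an Adapalene mean of 39.9 CPM. The effect of adapalene differed with docetaxel for 8 of the 32, each with a negative interaction (against 1.23% of all tested genes). Many of these genes are near-identical in sequence, and no source used here says how reads that match several copies were treated, which leaves the share of each single copy uncertain.

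**Figure D2:**
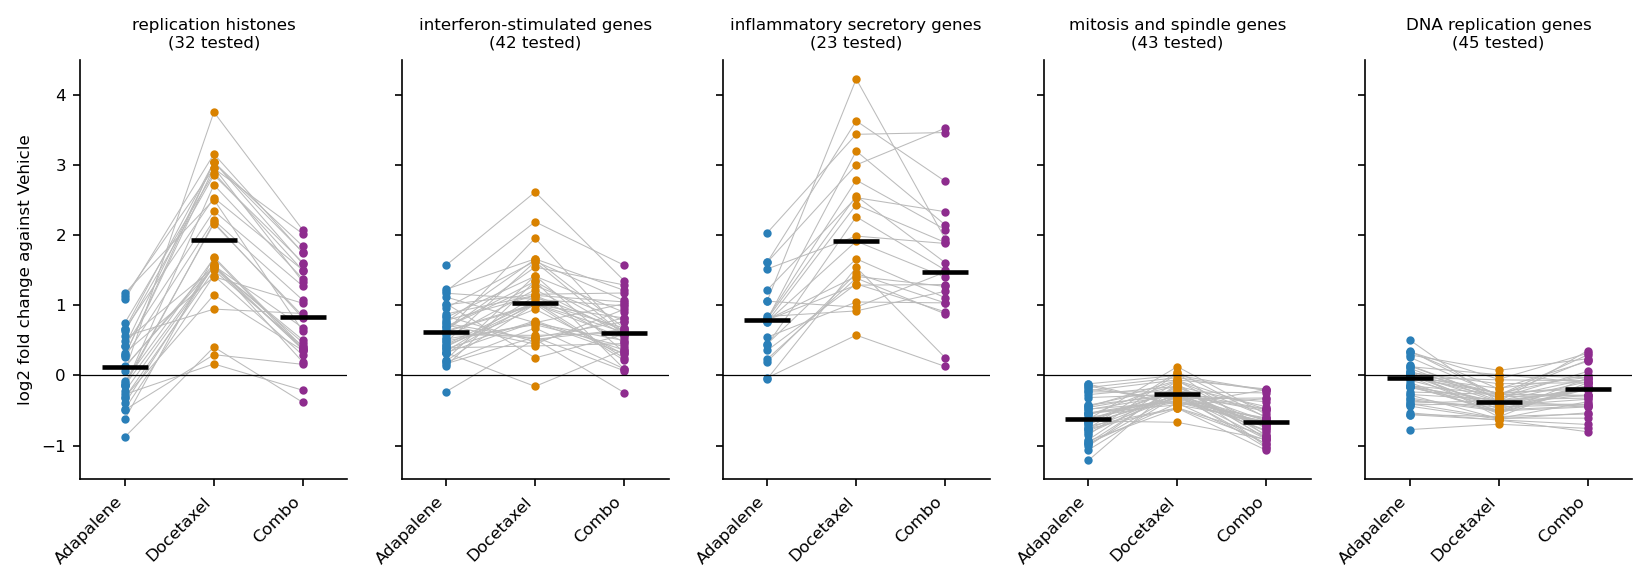
Log2 fold change against Vehicle in the Adapalene, Docetaxel and Combo groups for the tested members of 5 gene lists, with 1 point per gene, grey lines joining the same gene and a black bar at the median. The median of the replication histones is 0.12, 1.93 and 0.83 in the 3 groups, and that of the mitosis list is -0.62, -0.27 and -0.67; the 3 groups share the Vehicle libraries.

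Immediate-early genes, which answer signals without new protein synthesis, were lower in part. Of 30 tested members 12 were called lower (40.0%, against 11.2% of all tested genes) and 3 higher (10.0%, against 12.8%), with a median log2 fold change of -0.21. KLF6, a zinc-finger factor, stood at 390, 396, 346 and 371 CPM in Docetaxel and at 223, 168 and 233 CPM in Combo (log2 fold change -0.85, edgeR adjusted p = 0.000332). MYC, which drives growth and proliferation, stood at 608, 622, 566 and 628 CPM against 382, 345 and 371 CPM (log2 fold change -0.73, SE 0.0708, edgeR adjusted p = 1.41e-05). Both groups were tight and far apart for MYC, and its Vehicle and Adapalene means were 318 and 281 CPM. JUND, an AP-1 factor that is known to slow proliferation in some cells, rose from 41.9, 45.9, 51.5 and 43.4 CPM to 79.4, 87.5 and 102 CPM (log2 fold change 0.97, edgeR adjusted p = 8.57e-06). The AP-1 genes FOS, JUN and JUNB were among the 12 called lower, with log2 fold changes of -0.91, -0.67 and -0.29.

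Inflammatory secretory genes, the cytokines and chemokines that stressed or senescent cells release, showed 8 of 23 called lower (34.8%, against 11.2% of all tested genes) and 1 higher (4.35%, against 12.8%). The median log2 fold change was -0.45. IL1A, an upstream cytokine of this program, stood at 12.3, 12.6, 11.2 and 13 CPM in Docetaxel and at 6.54, 4.21 and 7.01 CPM in Combo (log2 fold change -1.05, SE 0.189, edgeR adjusted p = 0.00139). NFKBIA, the NF-kappaB inhibitor that NF-kappaB itself induces, fell by 0.51, with Docetaxel replicate 3 (231 CPM) set apart from the other 3 (279 to 282 CPM). CXCL6, a chemokine for neutrophils, rose by 0.50 (edgeR adjusted p = 0.00268).

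The best known members did not pass the test. IL6 had 73.9, 77.5, 67.9 and 80.1 CPM in Docetaxel and 41.5, 16.2 and 66.0 CPM in Combo (log2 fold change -0.86, SE 0.351, edgeR adjusted p = 0.0861). CXCL8 had 691, 629, 689 and 823 CPM and 423, 339 and 685 CPM (log2 fold change -0.55, edgeR adjusted p = 0.0687). In both genes Combo replicate 2 was the lowest and replicate 3 the highest of the group, and for CXCL8 the groups overlap. The summed level of the list was 2174 to 2419 CPM in Docetaxel and 1533, 1125 and 1972 CPM in Combo. Without Combo replicate 2, 3 members were called lower.

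Interferon-stimulated genes, the antiviral genes that interferons and nucleic acid sensors switch on, showed 16 of 42 called lower (38.1%, against 11.2% of all tested genes) and 1 higher (2.38%, against 12.8%), with a median log2 fold change of -0.46. IFIT1 (chromosome 10, 89392546 to 89406486), which binds foreign RNA, stood at 187, 153, 199 and 220 CPM in Docetaxel and at 87.2, 103 and 76.7 CPM in Combo (log2 fold change -1.09, SE 0.172, edgeR adjusted p = 0.000584). IFIT5 fell by 0.76, the DNA sensor IFI16 by 0.64 and the guanylate-binding protein GBP1 by 0.50 on the log2 scale. BATF2, an interferon-induced factor of the AP-1 family, stood at 9.31, 8.66, 8.01 and 11.2 CPM against 3.36, 3.99 and 3.13 CPM (log2 fold change -1.41, edgeR adjusted p = 9.67e-05). The antiviral effector SAMD9 fell by 0.56. OASL showed no call, at 83.2, 75.6, 88.3 and 92.0 CPM and 79.4, 82.7 and 76.3 CPM. Summed over the list, Combo replicate 2 (4813 CPM) lay inside the Docetaxel range of 4203 to 6061 CPM, and the other Combo libraries (3587 and 3524 CPM) lay below it. GBP genes resemble each other closely and are uncertain for that reason.

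Genes of the ATF4 and stress response supply amino acids and restore protein balance. Of 29 tested members 14 were called higher (48.3%, against 12.8%) and 0 lower (1 at an unadjusted p under 0.05, 0 by DESeq2), with a median log2 fold change of 0.30, and 15 were not called. PHGDH (chromosome 1, 119648411 to 119744226), the first enzyme of serine synthesis, stood at 150, 147, 188 and 167 CPM in Docetaxel and at 294, 330.3 and 296 CPM in Combo (log2 fold change 0.91, SE 0.0984, edgeR adjusted p = 3.34e-05). PSAT1, the next enzyme of that pathway, stood at 58.4, 53.8, 67.5 and 63.3 CPM against 113, 100.3 and 133 CPM (log2 fold change 0.92). CTH, which makes cysteine, rose by 0.66, and WARS1, which charges the transfer RNA of tryptophan, by 0.51. Stress genes of the same list that respond to damage, DDIT3 and PPP1R15A, had negative log2 fold changes of -0.28 and -0.57 and were not called (edgeR adjusted p = 0.189 and 0.0678). Without Combo replicate 3 the list had 9 members called higher and 2 lower.

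Among collagens and matrix genes 13 of 32 were called higher (40.6%, against 12.8% of all tested genes) and 3 lower (9.38%, against 11.2%), with a median of 0.32. COL6A1 and COL6A2, chains of collagen VI, rose by 0.72 and 0.68, and COL6A1 stood at 618, 640.3, 556 and 637 CPM in Docetaxel and at 964, 1089 and 982 CPM in Combo. HSPG2, which encodes perlecan of the basement membrane, stood at 102, 93.3, 112 and 129 CPM against 218, 304 and 223 CPM (log2 fold change 1.18, SE 0.138, edgeR adjusted p = 6.67e-05). Among lysosome genes 13 of 26 were called higher (50%, against 12.8%) and 3 lower (11.5%, against 11.2%), with a median of 0.22. ATP6AP1, an accessory subunit of the proton pump, rose by 0.45, CTSA, a lysosomal hydrolase, by 0.28, and TFE3, a transcription factor of lysosome genes, fell by 0.37. Without Combo replicate 2, 8 matrix genes were called higher.

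Cholesterol synthesis genes showed 9 of 29 called higher (31.0%, against 12.8% of all tested genes) and 0 lower by edgeR, by DESeq2 or at an unadjusted p under 0.05, with a median of 0.23. TM7SF2, a sterol reductase, stood at 14.1, 14.7, 15.2 and 18.1 CPM in Docetaxel and at 23, 35.5 and 31 CPM in Combo (log2 fold change 0.94, SE 0.159, edgeR adjusted p = 0.000986). DHCR7, another sterol reductase, rose by 0.39 and MVD, an enzyme of the mevalonate pathway, by 0.57. Combo replicate 2 was the highest library for TM7SF2, MVD and DHCR7, and without it 5 members were called higher.

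**Figure D3:**
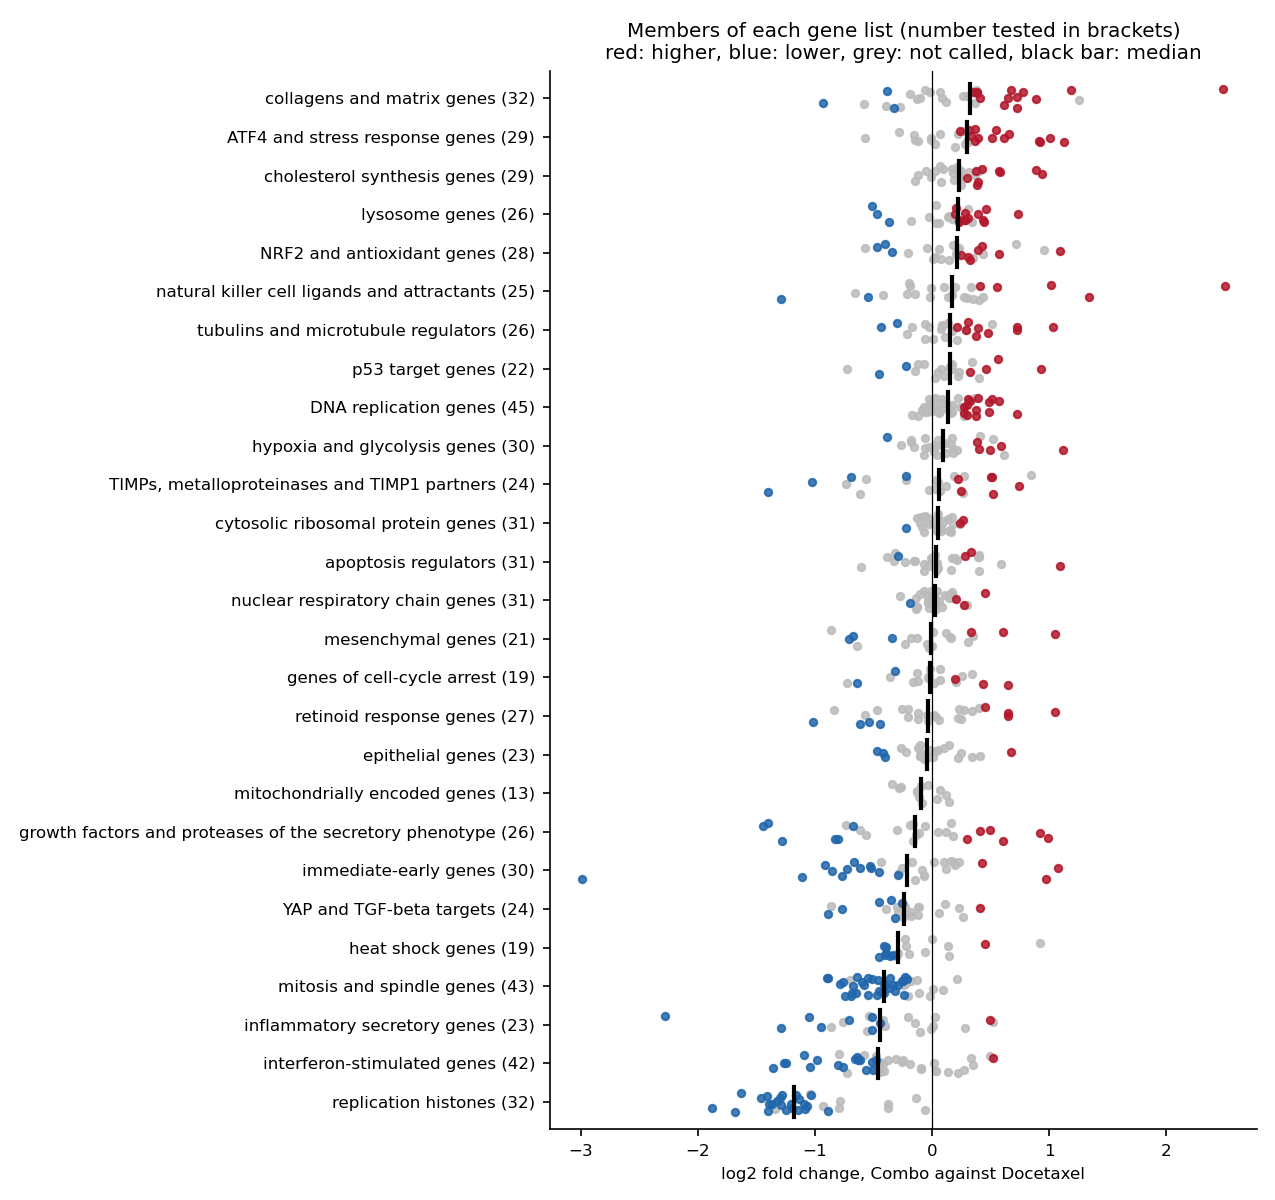
Log2 fold change of Combo against Docetaxel for each tested member of 27 gene lists, ordered by list median, with 1 point per gene (red called higher, blue called lower, grey not called) and a black bar at the median. The replication histones lie furthest to the left, with a median of -1.18 and no member above 0, and the collagens and matrix genes furthest to the right, with a median of 0.32.

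Tubulins are the target of docetaxel. Among tubulins and microtubule regulators 9 of 26 were called higher (34.6%, against 12.8% of all tested genes) and 2 lower (7.69%, against 11.2%), with a median of 0.15. TUBB4A, a beta-tubulin, stood at 50.1, 54.9, 56.5 and 57.1 CPM in Docetaxel and at 110.3, 117 and 108 CPM in Combo (log2 fold change 1.03, SE 0.0805, edgeR adjusted p = 2.33e-06). TUBA1A, an alpha-tubulin, and MAP1A, a microtubule-associated protein, each rose by 0.73, and MAP7, which recruits kinesin to microtubules, fell by 0.44. ABCB1, the efflux pump known to export taxanes, had too few counts for the test, with 16 in the library that had most. Without Docetaxel replicate 1, 5 members were called higher.

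Of 27 tested retinoid response genes 4 were called higher and 4 lower (14.8% each), close to the shares of all tested genes (12.8% and 11.2%), with a median of -0.04. RARB, a retinoic acid receptor that retinoids are known to induce in many cells, was low and fell, from 3.34, 3.24, 4.94 and 2.98 CPM to 2.18, 0.870 and 2.24 CPM (log2 fold change -1.02, SE 0.296, edgeR adjusted p = 0.0214). RARA had means of 31.5 and 28.9 CPM and RARG of 47.6 and 48.8 CPM, neither of them called (edgeR adjusted p = 0.265 and 0.838). CYP26A1, the retinoic acid hydroxylase and a classic retinoid target, had at most 3 counts in any library. PLAAT4, a phospholipase known as retinoid-induced, rose by 1.05. NRIP1, a corepressor of nuclear receptors, fell by 0.61 and FABP5, a carrier of fatty acids and retinoic acid, by 0.54. Both calls of RARB and PLAAT4 were lost without Combo replicate 2 (edgeR adjusted p of 0.0943 and 0.0700), that of RARB also without Docetaxel replicate 3 (0.0580), and without Combo replicate 2 the list had 2 members called in each direction.

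Metalloproteinases, their inhibitors and TIMP1 partners had 6 of 24 called higher (25%, against 12.8% of all tested genes) and 4 lower (16.7%, against 11.2%). MMP14, a membrane-bound collagenase, stood at 125, 128, 126 and 124 CPM in Docetaxel and at 188, 181 and 174 CPM in Combo (log2 fold change 0.52, SE 0.0613, edgeR adjusted p = 6.7e-05). TIMP2, which binds it, rose by 0.51, while MMP9, a gelatinase, fell by 1.02 from a mean of 6.31 CPM. Without Docetaxel replicate 1 or replicate 2 this list had 3 members called higher and 1 lower. Of growth factors and proteases of the secretory phenotype 6 of 26 were called in each direction (23.1%, against 12.8% of all tested genes higher and 11.2% lower), and 10 were called lower in a fit to the 7 libraries alone. PLAT, the tissue plasminogen activator, rose from 459, 411, 473 and 489.7 CPM to 941, 830.4 and 830.0 CPM (log2 fold change 0.92, edgeR adjusted p = 7.68e-06). AREG, a ligand of the EGF receptor, fell by 0.83, and INHBA, an activin subunit, by 0.67. Of the targets of YAP and TGF-beta 6 of 24 were called lower (25%, against 11.2%), CCN2 by 0.89. The number was 3 without Docetaxel replicate 1 or 2 and 1 without Combo replicate 2. Those fits called 1024 to 1194 genes lower in all, against 1769.

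CDKN1A, the inhibitor of cyclin-dependent kinases known as p21, had 103, 107, 118 and 82.8 CPM in Docetaxel and 146, 99.2 and 144 CPM in Combo, with overlap (log2 fold change 0.34, edgeR adjusted p = 0.0855). TXNIP, a regulator of glucose uptake, fell by 0.64, from 359 to 392 CPM in Docetaxel to 218 to 259.5 CPM in Combo. It was 1 of 2 genes of cell-cycle arrest called lower among 19 (10.5%, against 11.2% of all tested genes). In that list 3 were called higher (15.8%, against 12.8%), and 0 without Docetaxel replicate 1, 2 or 3. BMF, a pro-apoptotic member of the BCL2 family, rose from 6.11, 7.96, 6.05 and 6.33 CPM to 12, 14.3 and 16.2 CPM (log2 fold change 1.09, edgeR adjusted p = 0.000263). It was 1 of 3 apoptosis regulators called higher among 31 (9.68%, against 12.8% of all tested genes). Of the heat shock genes 7 of 19 were called lower (36.8%, against 11.2%), HSPE1 by 0.45. The number was 1 to 3 once Docetaxel replicate 1, 2 or 3 or Combo replicate 2 or 3 was left out. Those fits called 1024 to 1539 genes lower in all, against 1769. Of the NRF2 and antioxidant genes 7 of 28 were called higher (25%, against 12.8%), NQO1 by 0.42. The number was 3 or 4 without Docetaxel replicate 2 or 4 or Combo replicate 1 or 2. Those fits called 1268 to 1735 genes higher in all, against 2014. In the NRF2 list 3 were called lower (10.7%), and 1 without Docetaxel replicate 1 or 2 or Combo replicate 2. Of the ligands of natural killer cells 5 of 25 were called higher (20%, against 12.8%), NECTIN2 by 0.41 and CD70 by 0.55. Without Docetaxel replicate 1 or 2 or Combo replicate 3 the number was 3. Those fits called 1330 to 1691 genes higher in all, against 2014. In the main fit 2 members of this list were called lower (8.0%, against 11.2%).

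Several lists gave little or no shift. Mitochondrially encoded genes had 0 of 13 called in either direction by edgeR, by DESeq2 or at an unadjusted p under 0.05. Cytosolic ribosomal protein genes had 2 of 31 called higher and 1 lower (6.45% and 3.23%), with a median of 0.05. Nuclear genes of the respiratory chain had 3 of 31 called higher and 1 lower (9.68% and 3.23%), with a median of 0.03. Of all tested genes 12.8% were called higher and 11.2% lower. The calls of RPL5, RPL13, RPS27, ATP5F1C and COX4I1 were lost in some alternative fits. Epithelial genes had a median of -0.05 and mesenchymal genes one of -0.01. EPCAM, an epithelial adhesion protein, fell by 0.40 and DSP, a desmosome protein, by 0.47, while MUC1 rose by 0.68. Some genes that nearly every cell uses were almost uncounted, such as LDHA and RPS18 with at most 1 count and NDUFS1 with 0 in every library, so a gene at or near 0 in this table, TNF and HLA-E among them, cannot be read as silent.

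Whether adapalene acted alike with and without docetaxel was addressed by setting Combo against Docetaxel beside Adapalene against Vehicle, which share no library. Adapalene against Vehicle called 1455 genes higher (9.25%) and 1441 lower (9.16%). Of the genes higher in Combo than Docetaxel, 691 were also higher with adapalene alone, or 34.3% of the former list and 47.5% of the latter. For the lower genes, 706 were shared, 39.9% and 49.0% of the lists. Opposite calls were made for 48 genes, 47 of them lower in Combo and higher with adapalene alone. Across genes, which are not independent, the log2 fold changes of the 2 comparisons had a Pearson's r of 0.358 and a Spearman's rho of 0.421.

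**Figure D4:**
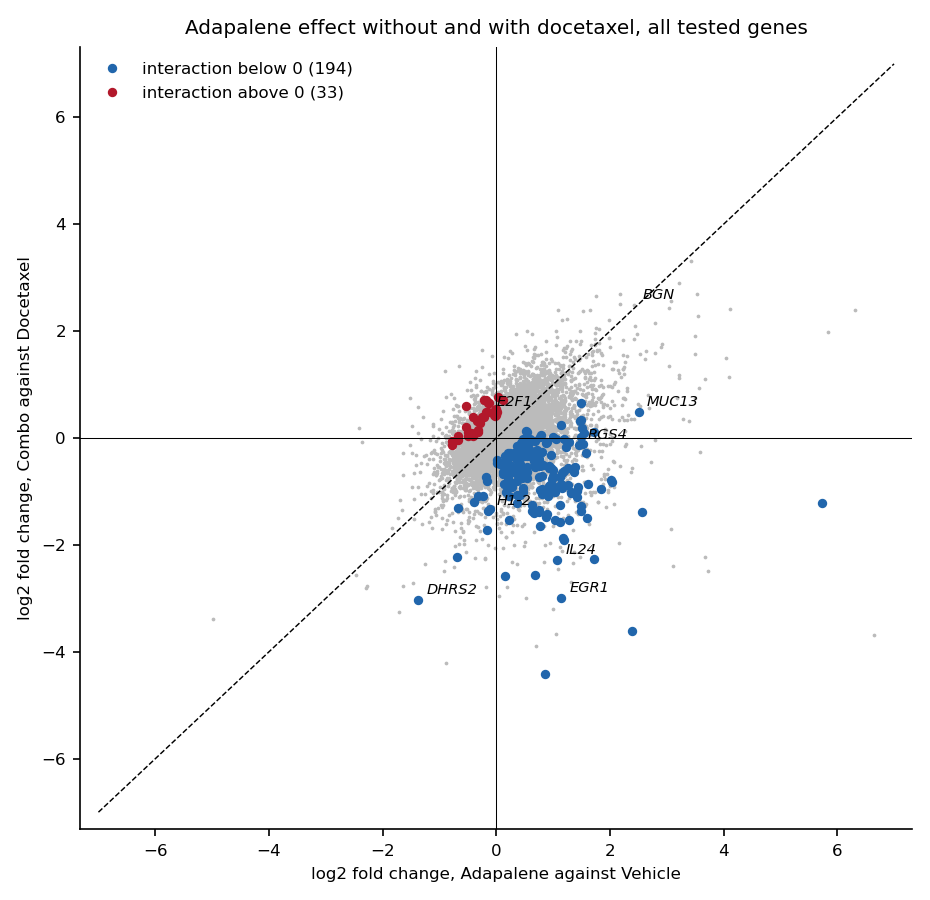
Log2 fold change of Combo against Docetaxel (vertical) against that of Adapalene against Vehicle (horizontal) for all 15734 tested genes, with 1 point per gene and a dashed line of equal effect. Blue marks the 194 genes with an interaction below 0 and red the 33 above 0. Most blue points lie to the right of 0 and below the horizontal line, a position that selecting for a negative interaction favours.

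The interaction test called 227 genes. It lay above 0 in 33 (0.21% of tested genes) and below 0 in 194 (1.23%). Of the 194, 183 had a positive log2 fold change with adapalene alone and 180 a negative one on top of docetaxel. The interaction is the difference of these 2 effects, so selecting genes by it favours such signs, and they are no separate result. Being called in both opposite directions was less common, with 47 genes higher with adapalene alone and lower in Combo. RGS4, a regulator of G-protein signalling, had means of 25.2 CPM in Vehicle and 69.2 CPM in Adapalene, and 93.6, 87.8, 81.6 and 80.2 CPM in Docetaxel against 78.1, 70.1 and 86.8 CPM in Combo (interaction -1.59 on the log2 scale, edgeR adjusted p = 0.000148). For RGS4 the adapalene effect was 1.46 without docetaxel and -0.13 with it. CDKN1A had an interaction of -1.16 (edgeR adjusted p = 0.0124), with means of 38.1 CPM in Vehicle and 108 CPM in Adapalene. IL24, EGR1 and SAMD9 had interactions of -3.35, -4.14 and -1.52.

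Of the 33 genes above 0, 21 were called higher in Combo than in Docetaxel and 13 lower with adapalene alone. Selecting for a positive interaction favours these directions. The 33 include E2F1 (interaction 0.63, edgeR adjusted p = 0.0328) and DHCR7 (0.63, edgeR adjusted p = 0.0291), whose adapalene effects without docetaxel were -0.14 and -0.25. By list, an interaction below 0 was called in 15 of 42 interferon-stimulated genes and 10 of 30 immediate-early genes. It was also called in 8 of 23 inflammatory genes and 8 of 32 replication histones, against 1.23% of all tested genes. As given above, it was called in 0 of 43 mitosis genes by edgeR. The number of interaction calls moved with single libraries, from 59 without Vehicle replicate 2 to 523 without Combo replicate 3. The calls of E2F1, DHCR7 and IL6 (interaction -2.48) were each lost in several of these fits.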

How the data were processed

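RNA of 13 libraries of PC3shTIMP1 cells was selected for poly(A), made into directional libraries and sequenced single-end, per the labels' protocols. The authors deposited 1 table of raw counts per gene, with 67882 identifiers, 61369 of them with a symbol. Per the submitters' processing notes, the build was GRCh38.p13 and the tools included STAR 2.7.10a, FastQC and DESeq2. No source used here names the counter or its strand setting. Coordinates of genes are those of GENCODE 29.

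From the counts, edgeR 4.0.16 (R 4.3.3, limma 3.58.1) was run with TMM scaling, filterByExpr (minimum count 10, minimum total 15) and its quasi-likelihood test on all 13 libraries and 4 groups, which share 1 estimate of the spread. Contrasts were Combo against Docetaxel, Adapalene against Vehicle and their difference, the interaction. Docetaxel and Combo were each also set against Vehicle. Standard errors are the fold change divided by the root of its F statistic. P-values were adjusted over 15734 genes. The script was tested on simulated data. DESeq2 1.42.0, other scalings and filters, a replicate block, a fit to the 7 libraries alone and leaving out each library were alternatives.

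The genes compared and the gene lists were chosen with earlier results of these data known. Genes were named by rule: the 12 largest called rises and falls without overlap between the groups and with a mean of at least 2 CPM in 1 of them, up to 4 called members per list with the smallest adjusted p, the 10 smallest interaction p-values, and TIMP1, CDKN1A, MKI67, PLK1, IL6, CXCL8, EGR1, H1-2, RARA, RARB, RARG, CYP26A1 and ABCB1. Some genes that the rule names are not reported here. Other genes were named after their values were seen. Matches of promoter letters were counted on RefSeq promoters (GRCh38.p14), using the first promoter listed per symbol.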

Additional observations from a re-analysis of the deposited data

Results flagged for a closer look

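In the Docetaxel group, 1 library lay far from the other 3 for 11 of the 139 gene and group sets examined, by the gap to the nearest library divided by the whole range (the ratio), read against the critical value of Dixon. Chance gives such a gap in about 1 in 20 sets. Docetaxel replicate 1 was the highest for CCDC13-AS2 at 3.27 CPM against 2.54 to 2.56 CPM (ratio 0.972). Docetaxel replicate 2 was the highest for BMF at 7.96 CPM against 6.05 to 6.33 CPM (ratio 0.853). Docetaxel replicate 2 was the lowest for ATP5F1C at 105 CPM against 108 to 109 CPM (ratio 0.879) and LINC01447 at 1.97 CPM against 2.98 to 3.13 CPM (ratio 0.873). Docetaxel replicate 3 was the highest for RPL13 at 554 CPM against 492 to 499 CPM (ratio 0.884). Docetaxel replicate 3 was the lowest for CRIM1 at 149.7 CPM against 168 to 170.0 CPM (ratio 0.905), INHBA at 504 CPM against 584 to 592 CPM (ratio 0.909) and NFKBIA at 231 CPM against 279 to 282 CPM (ratio 0.941). Docetaxel replicate 4 was the highest for CCNG2 at 27.8 CPM against 18.5 to 19.9 CPM (ratio 0.852). Docetaxel replicate 4 was the lowest for ANKRD65 at 54.8 CPM against 62.9 to 64.4 CPM (ratio 0.841) and HSP90AA1 at 2506 CPM against 2974 to 3046 CPM (ratio 0.867).

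The effect of adapalene differed between cells with and without docetaxel for 30 of the 143 named genes. These calls are from the edgeR test of the interaction, with adjusted p under 0.05. Over all 15734 tested genes that test called 227. Some of the 30, such as RGS4, GBP1 and H1-2, were named because their interaction p was among the smallest. Their calls follow from that choice, so the count of 30 does not measure how common an interaction was among the named genes. Values are the log2 effect with docetaxel minus that without it. The smallest adjusted p, 0.000148, was that of RGS4 and the largest, 0.0476, that of IL6. Among interferon-stimulated genes the interaction was IFIT1 -1.32, GBP1 -1.19, GBP3 -0.74, IFI16 -1.07, SAMD9 -1.52, OASL -0.97 and BATF2 -2.31. Among cytokine and immediate-early genes it was IL24 -3.35, IL1A -1.85, IL6 -2.48, NFKBIA -0.74, EGR1 -4.14, KLF6 -0.98 and MYC -0.55. Among histones it was H1-2 -1.22, H2BC12 -0.81, H2BC4 -1.21 and H2AC6 -0.77. The positive values were E2F1 0.63 and DHCR7 0.63. The others were ANKRD65 -1.39, CDKN1A -1.16, CTH -0.83, DHRS2 -1.65, DNAH3 -2.72, LINC01447 -3.25, LINC02757 -3.99, MUC13 -2.02, RGS4 -1.59 and TXNIP -0.89. Of the 30, 18 kept direction and call under every alternative run, and CTH, DHCR7, DNAH3, E2F1, H2AC6, IFIT1, IL1A, IL6, KLF6, LINC01447, MYC and NFKBIA lost the call in at least 1.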

How the results depend on the processing

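Counts of genes changed between Combo and Docetaxel held within 1.5 times under other scalings, DESeq2, other filters and a fit to the 7 libraries alone (1875 to 2126 higher and 1751 to 1904 lower, against 2014 and 1769). Leaving out 1 library gave 1268 to 1758 higher and 1024 to 1817 lower. The count for Adapalene against Vehicle (2896) ranged from 1494 to 2666 with 1 library left out. Under other scalings, DESeq2 and other filters it ranged from 2680 to 3315. Interactions (227) numbered 485 by DESeq2 and 946 with no filter, and 59 to 523 with 1 library left out. The causes were not tested. The difference in the mitochondrial share, 0.003475 percentage points, ranged from -0.466 to 0.336 and was -0.466 without Combo replicate 3, -0.0617 without Docetaxel replicate 1 and -0.296 without Docetaxel replicate 3. The log2 fold change of RARG, not called, ranged from -0.087 (without Combo replicate 2) to 0.13 with 1 library left out and was -0.013 without Docetaxel replicate 2.

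Of 135 named genes called, 110 kept direction and call under every alternative run, and 25 lost the call in at least 1, 20 of them without Combo replicate 2. With no filter, 26 interferon-stimulated genes and 13 inflammatory genes were called lower. Replicate numbers were taken as not pairing the libraries: deviations of same-numbered libraries correlated at 0.0997, -0.285 and -0.312 between Combo and Docetaxel, and at -0.048, 0.116 and -0.0928 between Vehicle and Adapalene. They correlated at 0.0202, 0.529 and 0.415 between Adapalene and Combo and at 0.257, 0.159 and 0.174 between Vehicle and Combo. The interaction test uses these 3 groups together with Docetaxel, and Combo was also tested against Vehicle. The main fit of these tests ignores any such pairing. With the replicate block, where Docetaxel replicate 4 carries no weight, 1841 genes were called higher, 1717 lower and 199 for the interaction, and 2829 for Adapalene against Vehicle. In that fit IL6 and CXCL8 were called lower (edgeR adjusted p = 0.0352 and 0.0233). The block uses the replicate numbers as given, and a batch shared by libraries of different numbers was not tested. Depth limits genes of a few counts, and those not tested were not detectable as changed.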

Other observations

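Genes in this section are outside the lists and were chosen after their values were seen. H1-10, a variant linker histone, fell by 0.94, from 198 to 214 CPM in Docetaxel to 96.8 to 120.0 CPM in Combo (edgeR adjusted p = 8.57e-06), and its log2 effect with adapalene alone was -0.64. HAS2, which makes hyaluronan, stood at 236, 242, 205 and 206 CPM against 108, 84.8 and 76.9 CPM (log2 fold change -1.31), and STAG1, a cohesin subunit, fell by 1.12.

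Several cell-surface genes rose. MRC2, an endocytic collagen receptor, stood at 47.6, 46.6, 45.6 and 53.9 CPM in Docetaxel and at 117, 137 and 118 CPM in Combo (log2 fold change 1.35, SE 0.0816, edgeR adjusted p = 2.91e-07). CSPG4, a membrane proteoglycan, stood at 15.8, 16.7, 17.4 and 21.8 CPM against 49.7, 48.6 and 43.5 CPM (log2 fold change 1.4), and ITGB3, an integrin subunit, rose by 1.21. The Notch receptor NOTCH3 rose by 1.03, with Combo replicate 2 highest at 92.5 CPM, and its log2 effect with adapalene alone was -0.06. FBN2, a fibrillin, and ERBB2, a receptor kinase, rose by 0.70 and 0.53, with effects of 0.12 and -0.02 with adapalene alone. For NOTCH3, FBN2 and ERBB2, Vehicle means were 67.3, 543 and 89.5 CPM and Docetaxel means lay lower, at 35.4, 363 and 60.7 CPM. Their Combo means were 72.3, 590 and 87.6 CPM, and edgeR called none of them between Combo and Vehicle.

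Families, too, were picked after their values were seen. By family, 7 of 11 tested LRP genes and 6 of 13 FKBP genes were called higher (against 12.8% of all tested genes). Of the HNRNP genes, which encode RNA-binding proteins of the nucleus, 10 of 23 were called lower (against 11.2% of all tested genes). Their median was -0.30, and -0.38 for adapalene alone.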
